A study of Homo sapiens with 6 samples.

Results

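The genes described here are 47 subunits of the vacuolar proton pump (V-ATPase), lysosomal proteins and their transcription factors, taken by symbol from a count table of 58302 human genes. They comprised 8 subunits of the V1 sector, 7 subunits of the V0 sector, 2 accessory proteins, 5 lysosomal membrane proteins, 10 cathepsins and other peptidases, 8 glycan hydrolases, 4 genes of lipid breakdown and 3 factors of the MiT/TFE family. The question put to them was whether the fall of ATP6V1G1 after MCM7 knockdown was shared by the other subunits of the pump or by the genes of the lysosome. ATP6V1G1 entered the list with its fall already known, so its own change is a description and not a test of the list. RNA was sequenced from 6 samples of hTert immortalized 1BR3 cells, a line of human forearm skin fibroblasts kept dividing by telomerase. The control group of 3 samples received non-targeting siRNAs, and the MCM7 siRNA group of 3 samples received a pool of 4 siRNAs against MCM7, a subunit of the helicase that opens DNA for replication. Both groups were transfected while cycling and then starved of serum for 3 days, which stops division and lets a primary cilium grow. The groups therefore differ in the siRNA alone by their labels, and they rest on 1 cell line and 1 siRNA pool. Nothing in the labels says whether the 3 samples of a group came from separate cultures, and the p-values therefore rest on a spread between samples that may be technical.

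The V-ATPase uses ATP to pump protons into lysosomes, endosomes and the Golgi. Its V1 sector faces the cytosol and holds the ATP-splitting head of alternating A and B subunits, a central rotor of D and F, and peripheral stalks of E and G that keep the head from turning with the rotor. The V0 sector lies in the membrane and carries protons through a ring of c subunits that turns against subunit a. The low pH it makes is what the cathepsins, glycosidases and lipases of the lysosome need to work. Many of these genes carry in their promoters a short E-box element read by TFEB, TFE3 and MITF, which enter the nucleus when starvation or lysosomal stress quiets mTORC1. Fibroblasts hold abundant lysosomes and are the cells in which many lysosomal storage diseases are diagnosed.

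The libraries held 18669386, 20150568 and 21380345 assigned reads in the control group and 13721281, 20112653 and 23969024 in the MCM7 siRNA group, of which the 47 genes took 0.958 to 0.988% and 0.929 to 0.939%. Control libraries held 509, 594 and 662 reads of MCM7 itself, and MCM7 siRNA libraries 48, 68 and 76 reads. Scaled for depth this was 29.4 ± 2.0 CPM (SD, n = 3) against 3.34 ± 0.167 CPM, so every library matched its label. CPM here are counts per 1000000 reads after scaling of the libraries. All 8 fibroblast markers were detected. Of these, 3 passed the edgeR test used throughout as higher and 1 as lower, beside 6.18% and 6.65% of all genes tested. Their summed level was 68010 to 73790 CPM in the control libraries and 72020 to 74500 CPM in the MCM7 siRNA libraries. COL1A1 and COL1A2 made up much of that sum, with means of 30215 and 22031 CPM in the controls. Summed markers of macrophages, osteoclasts and melanocytes stayed under 2 CPM in every library, with AIF1, CALCR, MMP9, TYR and SOX10 at 0 reads. Epithelial markers summed to 9.14 to 11.2 CPM and endothelial markers to 13.9 to 17.0 CPM over all libraries, with KRT5 at 0 reads.

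Promoter sequence was examined because the element that TFEB reads is the feature these genes are best known to share. The RefSeq promoter table (GRCh38.p14, 250 bases before to 50 after each start site) held 34 of the 47 genes. The letters CACGTG were looked for on both strands, and so were the 7 letters TCACGTG, which contain them. CACGTG was present in 12 of the 34 promoters (35.3%), beside 2396 of 27305 promoters in the whole table (8.77%) and 1247 of the 9827 promoters of genes tested here (12.7%). TCACGTG was present in 11 of the 34 (32.4%), beside 4.49% of the whole table and 7.32% of the genes tested. One 30-base window is given for each of 8 genes, 3 that fell after MCM7 knockdown (ATP6V1G1, CTSD, CTSF) and 5 that did not pass the test (ATP6V0B, ATP6V0D1, LAMP1, MCOLN1, GAA), since nearly the same letters stand in both sets. Capitals mark CACGTG with a T before it or an A after it (CACGTGA is TCACGTG read on the other strand), and each window is written 5′ to 3′ on the strand of its gene.
ATP6V1G1: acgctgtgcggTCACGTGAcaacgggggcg
CTSD: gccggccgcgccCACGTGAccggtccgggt
CTSF: acatataacaagCACGTGAtagaggtcagt
ATP6V0B: ccggcgtggggTCACGTGgtaccggcgcat
ATP6V0D1: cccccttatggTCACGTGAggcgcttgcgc
LAMP1: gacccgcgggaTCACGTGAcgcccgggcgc
MCOLN1: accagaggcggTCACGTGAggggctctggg
GAA: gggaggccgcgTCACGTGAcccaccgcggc

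In that order the windows lie at chr9:114587699-114587728 on the plus strand, chr11:1763957-1763986 and chr11:66568712-66568741 on the minus strand, chr1:43974891-43974920 on the plus strand and chr16:67481199-67481228 on the minus strand. The last 3 lie on the plus strand at chr13:113297199-113297228, chr19:7522571-7522600 and chr17:80101493-80101522. The letters stood 58 bases before the start site in ATP6V1G1, 47 in CTSD and 59 in ATP6V0D1. LAMP1 carried the 7 letters 6 times, from 192 bases to 1 base before its start site, whereas ATP6V0B, MCOLN1, CTSA and GAA carried them 2 times each. ATP6V0E2 and NEU1 held 1 match each, and CD63 held CACGTG without either flank. A match says only that the letters are there, and no binding was measured.

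The fall of ATP6V1G1 was not shared by the other measured subunits of the pump. Among 46 genes that passed the filter on low counts, 10 changed at an adjusted p under 0.05 in edgeR's quasi-likelihood test, with p-values adjusted over all 14667 genes tested. That was 21.7% of the 46, or 9 of 45 (20%) without ATP6V1G1, beside 12.8% of all genes tested. ATP6V1A, TPP1 and IDS rose, where 6.18% of all genes did. ATP6V1G1, CTSB, CTSD, CTSZ, CTSK, CTSF and NAGLU fell, where 6.65% of all genes did. The count was 6 without control replicate 1 and 6 without control replicate 3, the removals that moved it by more than 1.5 times. Of these, 4 were lower without control replicate 1, and 1 was higher without control replicate 3, while over all genes the count without control replicate 3 was 1151 in place of 1881. The 46 genes had a median log2 fold change of -0.014, next to -0.0028 over all genes, and 35 of them lay within 1.1-fold of no change and 45 within 1.25-fold. In 18 of the 46 no MCM7 siRNA library overlapped a control library, a pattern found in 29.6% of all genes tested.

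**Figure D1:**
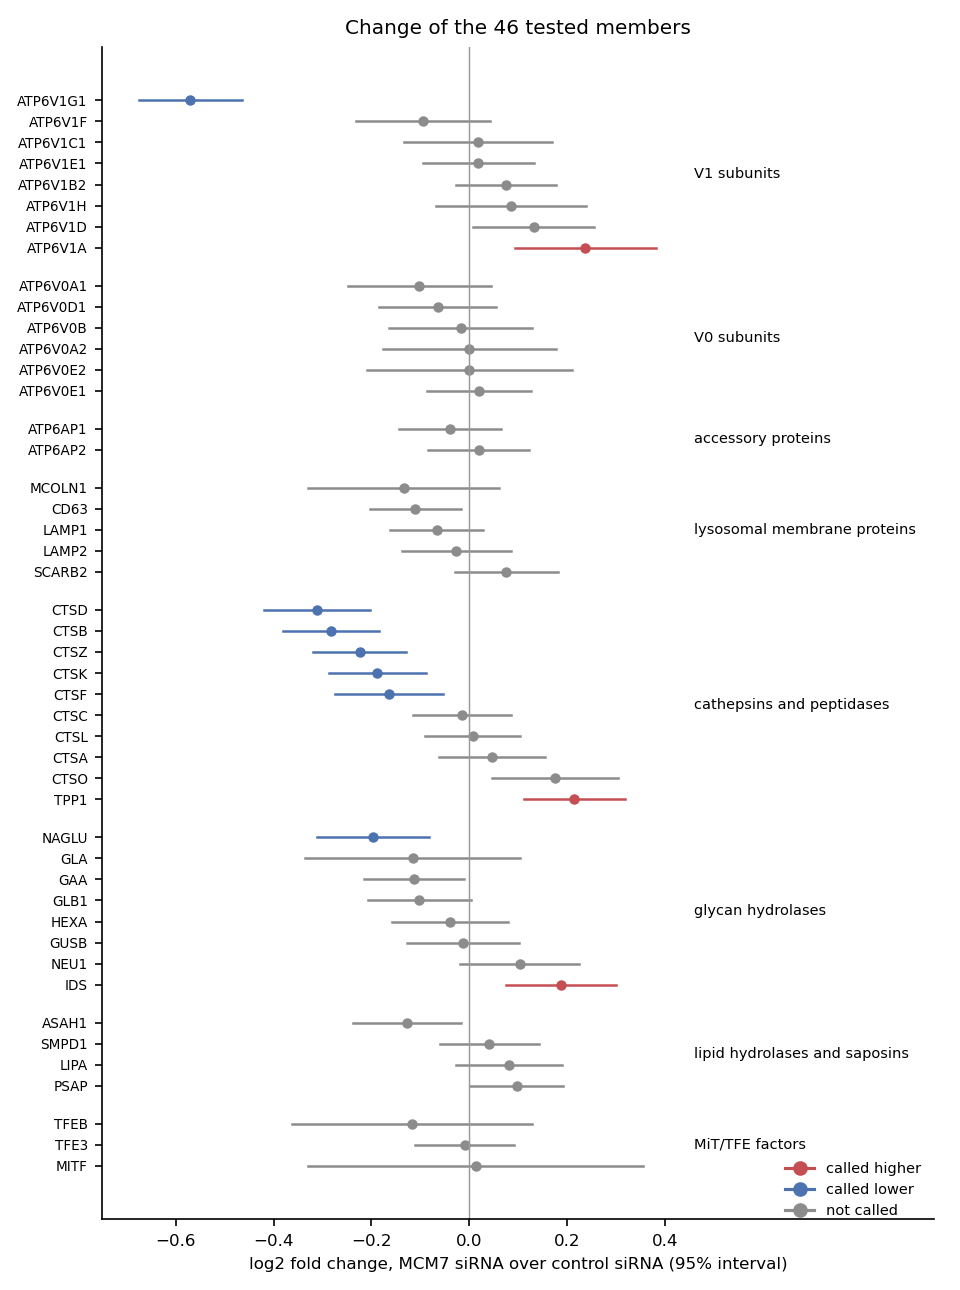
Log2 fold change of the 46 tested genes in MCM7 siRNA over control siRNA samples (n = 3 each), with 95% intervals of edgeR's quasi-likelihood test, grouped by role and sorted within each group. The interval of ATP6V1G1 (-0.68 to -0.46) stands apart from the intervals of the other 45 genes, whose lowest bound is that of CTSD (-0.42).

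ATP6V1G1, the G subunit of the peripheral stalks, was the member with the largest change. The gene (ENSG00000136888) spans chr9:114587706-114598915 on the plus strand of GRCh38 and shares no exon bases with another gene on that strand in GENCODE 44. Control libraries gave it 1822, 1980 and 2058 reads, and MCM7 siRNA libraries 919, 1367 and 1525 reads. Scaled for depth, the level was 97.7, 98.7 and 97.2 CPM in the controls and 67.2, 67.0 and 63.8 CPM after MCM7 knockdown. The groups were far apart, since the lowest control library exceeded the highest MCM7 siRNA library by many times the spread within either group. The mean went from 97.9 ± 0.765 to 66.0 ± 1.93 CPM (SD, n = 3), or 67.3% of control. The log2 fold change was -0.57 ± 0.05 (SE), with an adjusted p of 5.4e-09 in edgeR. In bulk RNA, less ATP6V1G1 per cell and fewer cells with high ATP6V1G1 cannot be told apart. Of the 14667 genes tested, 251 had a lower log2 fold change. The table lists 5 pseudogenes named after ATP6V1G1, and each had 0 reads in all libraries. Reads that map equally well to the gene and a copy were discarded when the counts were made, and how many there were was not tested.

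None of the other 45 tested genes of the list came near this change. For each of them, the lower bound of the 95% interval lay above the upper bound of ATP6V1G1 (-0.46), so that a fall of the same size lay outside every one of these intervals. The lowest bound among them was -0.42, in CTSD. Within the V1 sector, the log2 ratio of ATP6V1G1 to the geometric mean of the other 7 subunits was 1.19, 1.26 and 1.24 for the controls, as against 0.62, 0.63 and 0.54 for the MCM7 siRNA libraries. The ratio went from 1.23 ± 0.04 to 0.60 ± 0.05 (SD, n = 3), a difference of -0.64, given as a description. Per length, ATP6V1G1 and ATP6V1F were the highest V1 genes of the control cells, at 74.6 ± 0.782 and 74.5 ± 1.57 RPKM (RPM per kilobase), while the other 6 ranged from 4.28 to 20.3 RPKM. After MCM7 knockdown ATP6V1G1 stood at 50.7 ± 1.74 RPKM and ATP6V1F at 70.0 ± 8.06 RPKM. The share of ATP6V1G1 in the summed RPKM of the 8 V1 genes was 36.3, 37.4 and 36.2% in the controls and 29.0, 29.8 and 26.4% in the MCM7 siRNA libraries.

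**Figure D2:**
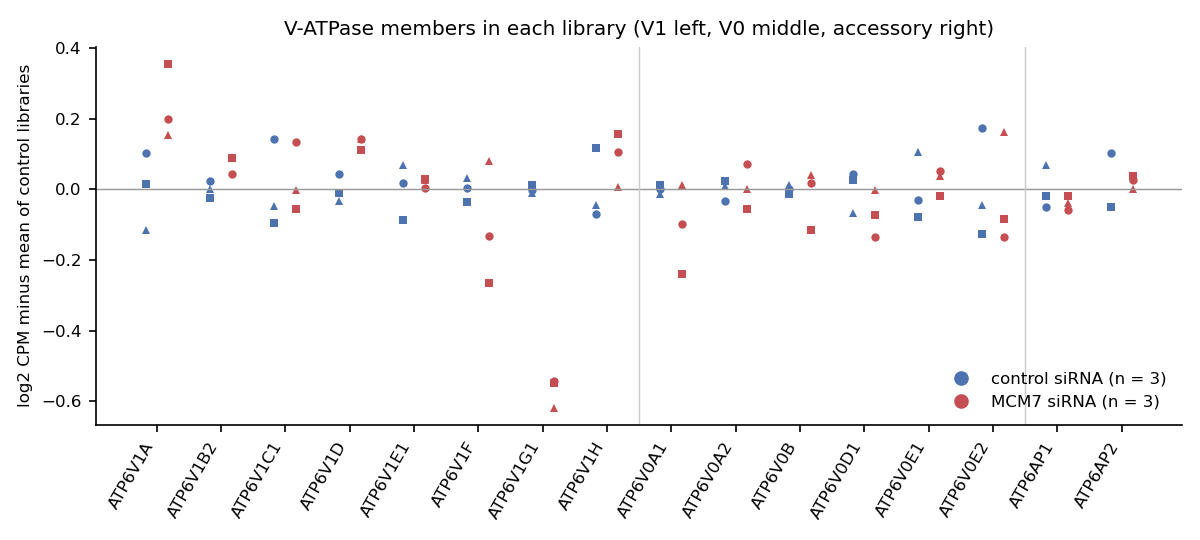
Log2 CPM of each V-ATPase gene in each library, set against the mean of the 3 control libraries, with V1 subunits on the left, V0 subunits in the middle and accessory proteins on the right. Circles, squares and triangles are replicates 1, 2 and 3, which share only a number between the groups, and the 3 MCM7 siRNA points of ATP6V1G1 lie below those of every other gene.

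ATP6V1A, the catalytic A subunit, was the other V1 gene past the threshold, and it rose. Its level was 32.3, 30.4 and 27.8 CPM in the controls and 34.5, 38.5 and 33.5 CPM after MCM7 knockdown, and the groups, though apart, nearly met. The rise was 1.18-fold (log2 fold change 0.24 ± 0.07, adjusted p = 0.0234 in edgeR). DESeq2 gave an adjusted p of 0.054. In edgeR the adjusted p was 0.0761 without control replicate 2, 0.185 without control replicate 3 and 0.124 without MCM7 siRNA replicate 2. ATP6V1D of the rotor had a log2 fold change of 0.13, with groups that did not overlap and an adjusted p of 0.163. ATP6V1B2, the B subunit of the head, and ATP6V1H, a regulator that bridges head and stalk, each had 0.08. ATP6V1C1 and ATP6V1E1, partners of the G subunit at the stalks, each had 0.02. For ATP6V1E1, which binds the G subunit directly, the interval ran from -0.10 to 0.13.

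ATP6V1F, the other rotor subunit, was unevenly measured in the knockdown. Its level was 59.2, 57.6 and 60.3 CPM in the controls, as against 53.9, 49.1 and 62.4 CPM after MCM7 knockdown, so the groups overlapped through MCM7 siRNA replicate 3. The log2 fold change was -0.09 (adjusted p = 0.399 in edgeR). Without that library it was -0.20, with an adjusted p of 0.0167, and without MCM7 siRNA replicate 2 it was -0.011, with an adjusted p of 0.945.

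None of the 6 V0 genes tested passed the threshold, which 12.8% of all genes tested did. In all 6 the groups overlapped, whereas 29.6% of all genes tested had groups that did not. Their log2 fold changes ran from -0.103 in ATP6V0A1 to 0.02 in ATP6V0E1, with a median of -0.009. ATP6V0A1 and ATP6V0A2 encode forms of subunit a, which meets the ring of c subunits, and ATP6V0A2 had a log2 fold change within 0.01 of zero. ATP6V0B, the c″ subunit of the ring, had 22.6 ± 0.216 CPM in the controls and 22.3 ± 1.28 CPM after MCM7 knockdown. ATP6V0D1, which joins the ring to the rotor, had 52.9 ± 2.16 and 50.4 ± 2.32 CPM. The small e subunits differed in level, ATP6V0E1 being the highest V0 gene per length, at 93.2 RPKM in the controls, and ATP6V0E2 standing at 3.04 RPKM.

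ATP6V0C, the main c subunit of the ring, could not be judged. It had 0 to 2 reads in each library, and in GENCODE 44 its exons share 76.3% of their bases with genes on the same strand that read through it. Those readthrough genes had 0 reads. When reads are assigned by gene, a read that falls on more than 1 gene of the same strand is left out, but the part of this in the low count was not tested.

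The accessory proteins gave no call. ATP6AP1, which helps the V0 sector assemble, had 100.1 ± 4.25 CPM in the controls and 97.3 ± 1.35 CPM after MCM7 knockdown. ATP6AP2, the prorenin receptor, also needed for V0 assembly, had 210.5, 189.3 and 189.2 CPM in the controls and 199.6, 201.1 and 196.0 CPM in the MCM7 siRNA libraries, which all lay within the range of the controls. Its log2 fold change was 0.02, with an interval from -0.08 to 0.12. Over the 16 V-ATPase genes tested, 1 rose and 1 fell (12.5%, beside 12.8% of all genes), and the median log2 fold change was 0.009.

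Of the 30 genes of the lysosome and its control, 8 passed the threshold (26.7%, beside 12.8% of all genes tested), with 2 higher and 6 lower, and whether this share differs from that of the pump was not tested. Their median log2 fold change was -0.033. The 5 lysosomal membrane genes were not among the 8. LAMP1 and LAMP2, the most abundant glycoproteins of the lysosomal coat, had log2 fold changes of -0.07 and -0.03. CD63, a tetraspanin of late endosomes, had 676.5 to 686.1 CPM in the controls and 622.6 to 638.5 CPM after MCM7 knockdown, groups that did not overlap, with a log2 fold change of -0.11 and an adjusted p of 0.11 in edgeR. SCARB2, the receptor that carries glucocerebrosidase to lysosomes, had 0.08. MCOLN1, the calcium channel of the lysosome, had -0.13, with an interval from -0.33 to 0.06.

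The cathepsins and peptidases held 6 of the 10 calls, 5 lower and 1 higher out of 10 genes tested, beside 6.65% lower and 6.18% higher over all genes, with a median log2 fold change of -0.09. Reads of these 10 genes made up 0.483, 0.457 and 0.47% of all reads in the controls, as against 0.428, 0.422 and 0.423% after MCM7 knockdown, so that every control library lay above every MCM7 siRNA library. The most read genes, CTSB and CTSK, weigh most in this share, with means going from 1630 to 1340 and from 908 to 797 CPM. TPP1, CTSO, CTSA and CTSL had positive log2 fold changes, so the share does not describe each gene.

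CTSB, or cathepsin B, the most read of them, had 1673, 1557 and 1660 CPM in the controls and 1359, 1337 and 1323 CPM after MCM7 knockdown. The groups were well apart, and the fall was 1.22-fold (log2 fold change -0.28 ± 0.05, adjusted p = 0.000112 in edgeR). CTSD, the aspartic protease cathepsin D, had 408.1, 406.4 and 405.1 CPM in the controls, which were close together, and 340.4, 295.9 and 346.7 CPM in the MCM7 siRNA libraries, among which replicate 2 was the lowest. The fall was 1.24-fold (-0.31 ± 0.05, adjusted p = 0.000112). In GENCODE 44, 27.3% of the exon bases of CTSD are shared with other genes of its strand. CTSZ, a carboxypeptidase, had 362.1, 351.7 and 370.2 CPM in the controls and 315.1, 311.2 and 301.9 CPM after MCM7 knockdown. It fell 1.17-fold (-0.22 ± 0.05, adjusted p = 0.00121), and like CTSB and CTSD it passed the threshold under all 16 alternatives.

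CTSK, the collagen-degrading cathepsin K, was the highest of the 47 genes per length, at 479 ± 22.5 RPKM in the controls. Its level was 952.7, 876.6 and 894.4 CPM in the controls and 814.5, 808.1 and 768.5 CPM in the MCM7 siRNA libraries. The groups did not overlap, and it fell 1.14-fold (-0.19 ± 0.05, adjusted p = 0.00833 in edgeR). Without control replicate 1, the highest library, the adjusted p was 0.0733. Cathepsin K is best known from osteoclasts, and the 7 osteoclast markers summed to 1.04 to 1.45 CPM in the controls and 0.293 to 0.711 CPM in the MCM7 siRNA libraries, with CALCR, MMP9, OCSTAMP and ATP6V0D2 at 0 reads in all. Most of that sum was ACP5, the only 1 of the 7 to pass the filter, at 4 to 24 reads in a library. ACP5 had means of 1.04 and 0.517 CPM and did not pass the threshold (adjusted p = 0.0566 in edgeR). CTSF, a cysteine protease, had 84.8, 84.9 and 83.8 CPM in the controls and 80.0, 76.4 and 70.6 CPM after MCM7 knockdown. Its fall of 1.12-fold was near the limit (-0.16 ± 0.05, adjusted p = 0.0436) and failed under 10 of the 16 alternatives. With 1 library left out, its adjusted p was 0.117 (control replicate 1), 0.12 (control replicate 2), 0.114 (control replicate 3) or 0.154 (MCM7 siRNA replicate 3).

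**Figure D3:**
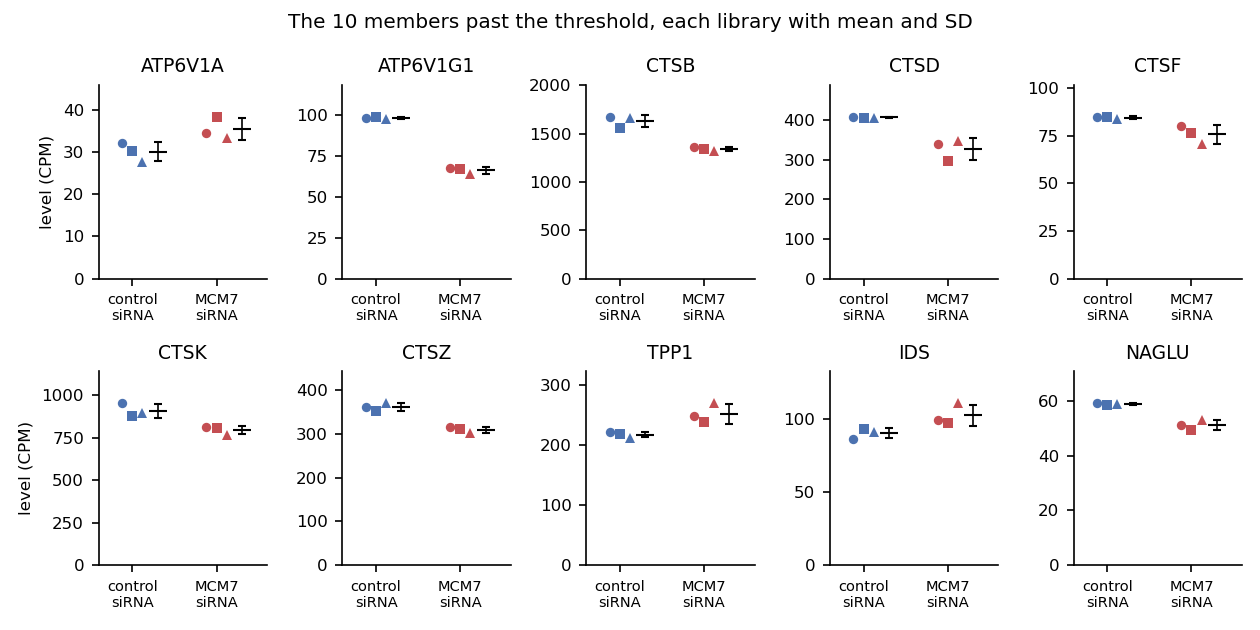
Level in CPM of the 10 genes past the threshold in each library, with the mean and SD of each group (n = 3), on axes that start at 0; circles, squares and triangles are replicates 1, 2 and 3. ATP6V1G1 falls from 97.9 to 66.0 CPM, whereas the other 9 genes change by 1.12-fold to 1.24-fold.

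TPP1, a tripeptidyl peptidase whose loss causes a neuronal storage disease, rose in the same cells. It had 221.6, 217.9 and 212.5 CPM in the controls and 247.9, 238.3 and 269.7 CPM in the MCM7 siRNA libraries, with no overlap. The rise was 1.16-fold (0.21 ± 0.05, adjusted p = 0.00399 in edgeR), and it passed under all 16 alternatives. CTSO, a little studied cysteine protease, had a log2 fold change of 0.18 and an adjusted p of 0.0627, and it passed the threshold under 5 of the 16 alternatives. Without MCM7 siRNA replicate 3 its adjusted p was 0.00318. CTSL, CTSC and CTSA did not pass, and their log2 fold changes were 0.01, -0.01 and 0.05. CTSL, an abundant endopeptidase of fibroblasts, had 400.7 ± 17.7 CPM in the controls and 402.6 ± 7.16 CPM after MCM7 knockdown.

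Of the 8 glycan hydrolases, 1 rose and 1 fell (25%, beside 12.8% of all genes tested). NAGLU, which removes glucosamine residues from heparan sulfate, had 59.2, 58.7 and 58.9 CPM in the controls and 51.4, 49.6 and 53.1 CPM after MCM7 knockdown. The control values were nearly equal, and the fall was 1.15-fold (-0.20 ± 0.06, adjusted p = 0.017 in edgeR). With 1 library left out the call was lost in 5 of 6 cases, at adjusted p of 0.0596, 0.0516 and 0.0667 without control replicates 1, 2 and 3 and of 0.0608 and 0.0595 without MCM7 siRNA replicates 1 and 2. IDS, a sulfatase of the same pathway, had 86.4, 93.2 and 91.0 CPM in the controls and 99.5, 97.4 and 110.7 CPM in the MCM7 siRNA libraries, of which replicate 3 was the highest. It rose 1.14-fold (0.19 ± 0.06, adjusted p = 0.0218), while its adjusted p was 0.13 without control replicate 1, 0.0721 without control replicate 3 and 0.11 without MCM7 siRNA replicate 3. IDS shares 75.9% of its exon bases with other genes of its strand, and NAGLU 12.9%, and whether reads were lost there was not tested.

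The other 6 glycan hydrolases had log2 fold changes from -0.12 to 0.10. GLA, GLB1 and GAA, which split galactose from lipids, galactose from gangliosides and glucose from glycogen, lay at -0.12, -0.10 and -0.11. In these 3 the groups did not overlap, as was so in 29.6% of all genes tested. For GAA the adjusted p was 0.14, and it was 0.0385 without MCM7 siRNA replicate 3. HEXA had -0.04, GUSB -0.01 and NEU1 0.10. The table holds pseudogenes of GUSB with up to 284 reads over all libraries, and whether these copies affect the count of this gene was not tested.

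Genes of lipid breakdown did not pass the threshold. PSAP, the precursor of the saposins and the second highest of the 47 genes per length in the controls, had 1535 to 1563 CPM in the controls and 1628 to 1673 CPM after MCM7 knockdown, groups that did not overlap. Its log2 fold change was 0.10, with an interval from 0.0023 to 0.19 and an adjusted p of 0.179. ASAH1, the acid ceramidase, had 90.8 to 99.8 CPM in the controls and 81.5 to 88.4 CPM in the MCM7 siRNA libraries, with a log2 fold change of -0.13 and an adjusted p of 0.124. SMPD1, the acid sphingomyelinase, had 0.04, and LIPA, the lysosomal acid lipase, had 0.08.

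**Figure D4:**
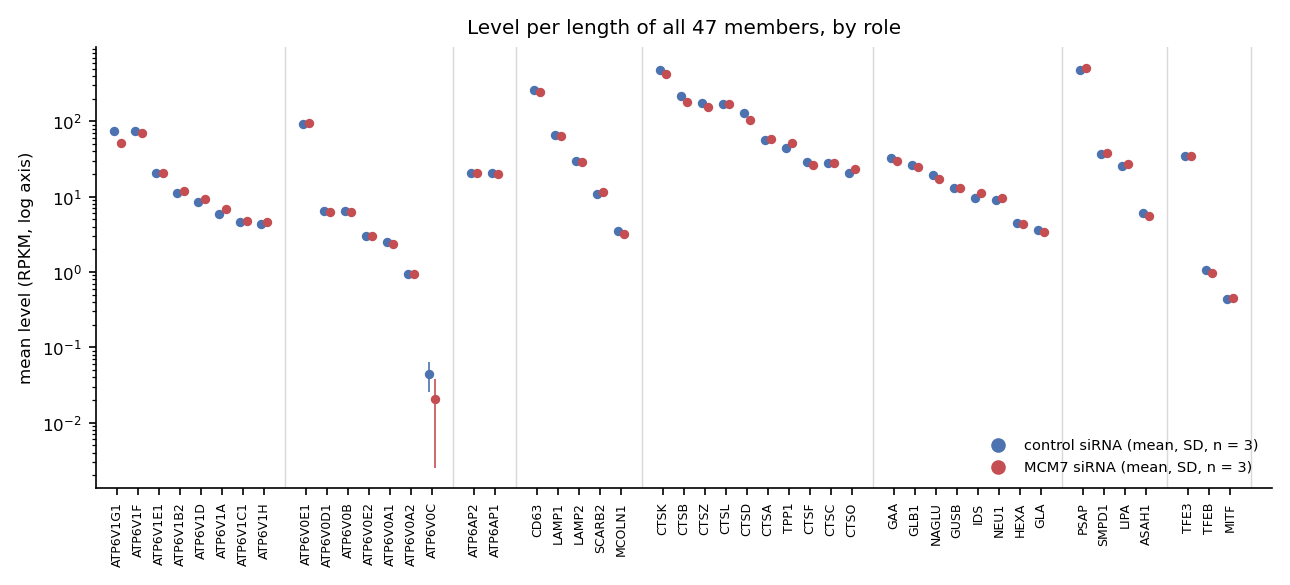
Mean level of all 47 genes in RPKM on a log axis, with SD over 3 libraries of each group, arranged by role from V1 subunits on the left to MiT/TFE factors on the right. CTSK and PSAP stand highest, ATP6V0C lowest, and the step between the groups is widest for ATP6V1G1 among the genes with more than a few reads.

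The MiT/TFE factors that read the E-box did not pass the threshold. TFE3 was the highest of them per length, at 34.3 RPKM in the controls against 1.05 RPKM for TFEB and 0.435 RPKM for MITF. It had 142.2, 147.0 and 153.5 CPM in the controls and 143.2, 144.2 and 152.2 CPM after MCM7 knockdown, and the groups overlapped fully. Its log2 fold change was -0.01, with an interval from -0.11 to 0.09. TFEB had 5.90, 6.18 and 5.81 CPM in the controls and 5.56, 5.09 and 5.81 CPM in the MCM7 siRNA libraries, with a log2 fold change of -0.12 and a wide interval from -0.36 to 0.13. MITF had 3.54, 3.19 and 2.69 CPM in the controls and 3.8, 2.99 and 2.89 CPM in the MCM7 siRNA libraries, and its interval from -0.33 to 0.36 would miss changes of that size. These values are RNA levels, and the factors act mainly by moving into the nucleus, which was not measured.

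Genes with the 7 letters shown above in ATP6V1G1 and LAMP1 did not share a large shift. The 11 genes with TCACGTG had a median log2 fold change of -0.066 (from -0.57 to 0.103). Of these, 3 were lower and 0 higher, beside 6.65% and 6.18% of all genes tested. The 22 tested genes with a promoter in the table but without it had a median of -0.005, with 1 lower and 2 higher. Among all genes tested, TCACGTG was present in 8.6% of the promoters of genes called lower and 8.26% of those called higher, beside 7.32% of all. The 3 genes with the element that fell were ATP6V1G1, CTSD and CTSF, whereas LAMP1, with 6 matches, had a log2 fold change of -0.07. ATP6V1G1 entered the list with its fall known, so the count and the lowest value of this set are partly fixed by that choice. CTSB, CTSK and NAGLU, which fell, and ATP6V1A, which rose, were among the 13 genes with no promoter in the table. Whether they carry the element was not examined, and they are in neither set.

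A further 134 genes of the same compartment, in 8 lists, were described in the same way, and 121 of them passed the filter. Of these, 13 rose and 14 fell (22.3%, beside 12.8% of all genes tested), with a median log2 fold change of 0.02. This count was between 16 and 17 without any 1 of the 3 control libraries and without MCM7 siRNA replicate 1 or 2, and 31 without MCM7 siRNA replicate 3. Over all genes the count moved too, to between 1151 and 1700 and to 2265 in the same runs, in place of 1881. Other subunit forms of the pump gave 0 calls in 6 tested genes. Among them ATP6V1G2 and ATP6V1G3, the other forms of subunit G, had 1.08 and 1.28 CPM in the controls and 0.963 and 1.06 CPM after MCM7 knockdown, at most 31 reads in a library. Of 9 assembly factors, ROGDI, a member of the complex that joins V1 to V0, fell 1.30-fold (adjusted p = 0.00767 in edgeR).

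**Figure D5:**
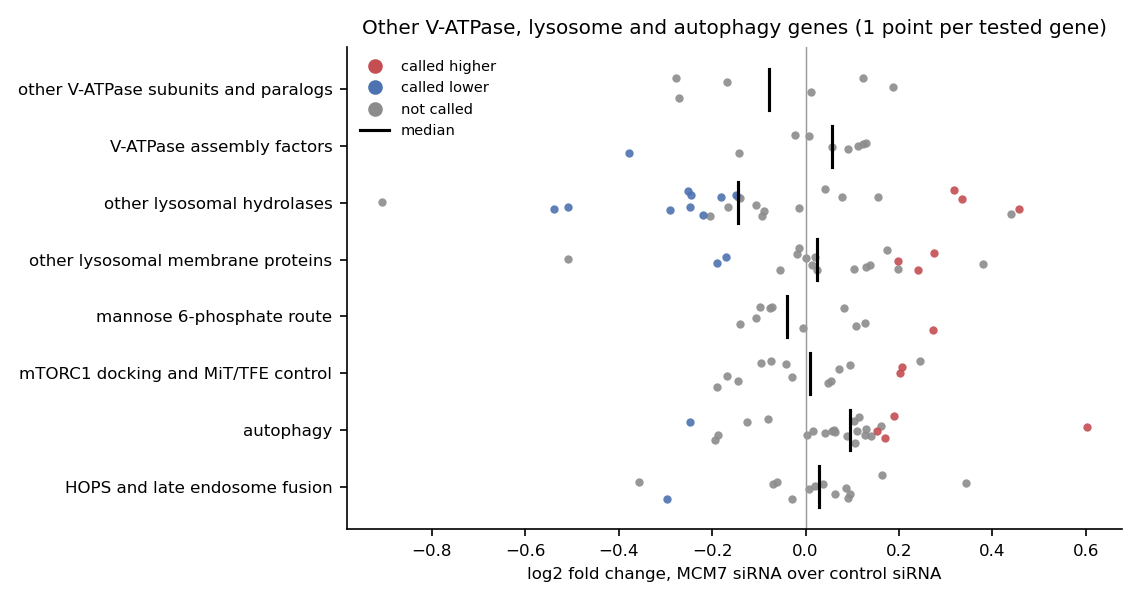
Log2 fold change of 121 further V-ATPase, lysosome and autophagy genes in 8 lists, 1 point for each tested gene, with the median of each list as a bar. The other lysosomal hydrolases have the lowest median (-0.144), and GABARAPL1 in the autophagy list has the highest point among the genes past the threshold.

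Among the other lysosomal hydrolases, 9 were lower and 3 higher of 25 tested, beside 6.65% lower and 6.18% higher over all genes, with a median of -0.144, and the difference from other genes was not tested. GM2A, the activator protein that presents gangliosides to hexosaminidase, fell 1.42-fold, from 23.5 ± 0.812 to 16.6 ± 0.549 CPM (adjusted p = 1.58e-05 in edgeR). PLA2G15, the lysosomal phospholipase, fell 1.45-fold, from 22.0 ± 1.65 to 15.2 ± 0.895 CPM (adjusted p = 2.2e-05). Both were of nearly the size seen for ATP6V1G1. GALC, which splits galactosylceramide, rose 1.37-fold, from 15.6 ± 0.175 to 21.3 ± 1.05 CPM (adjusted p = 9.63e-05). ARSB, a sulfatase of dermatan sulfate, rose 1.25-fold, from 53.3 ± 0.765 to 66.3 ± 3.01 CPM (adjusted p = 0.00019).

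Of 19 other lysosomal membrane and luminal transport genes, 3 rose and 2 fell (26.3%, beside 12.8% of all genes tested), and the calls with the smallest p were CD164 and NPC2, which were lower, and OSTM1 and TMEM192, which were higher. In the mannose 6-phosphate route, GNPTAB, the enzyme that begins the tag by which hydrolases are sorted to lysosomes, rose 1.21-fold (adjusted p = 0.00148 in edgeR). MTOR, the kinase of mTORC1, and LAMTOR3, of the complex that docks mTORC1 on lysosomes, rose 1.15-fold each (adjusted p of 0.0215 and 0.0478). Of 24 autophagy genes, 4 rose and 1 fell (20.8%). GABARAPL1, a ubiquitin-like protein that is joined to the autophagosome membrane, rose 1.52-fold, from 147 ± 4.21 to 223 ± 1.40 CPM (adjusted p = 3.54e-10), beside 1.48-fold in the other direction for ATP6V1G1. RB1CC1 and MAP1LC3B rose 1.14-fold and 1.13-fold, whereas BECN1 fell 1.19-fold. VPS18, a core subunit of the HOPS tether, fell 1.23-fold (adjusted p = 0.00168).

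The 7 letters GAGATGA, which an earlier scan of these data had picked out in 3′ UTRs, were also looked for in the 47 genes. They were present in 4 of 45 genes with a 3′ UTR of at least 50 bases (8.89%), namely ATP6V0A2, LAMP1, LAMP2 and IDS, beside 15% of 11904 tested genes. None of the 7 genes that fell carried them (0 of 7). The median log2 fold change was -0.013 in the 4 genes and -0.014 in the rest.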

How the data were processed

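Stranded single-end libraries were made from poly(A)+ RNA. Reads were mapped to GRCh38 with TopHat2 2.1.0 after conversion by bcl2fastq 1.8.4 and counted with featureCounts 1.5.0, the versions being those of the submitters' processing notes. Reads mapping to more than 1 place were discarded and counting followed the strand. The authors deposited raw read counts per gene, RPM values (counts per 1000000 assigned reads of the library) and RPKM values (RPM per kilobase, with 1 length per gene).

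The quasi-likelihood test of edgeR 4.0.16 (R 4.3.3) was run on the counts after filterByExpr and TMM scaling (factors 0.9914 to 1.016), 2-sided, with Benjamini-Hochberg adjustment over 14667 genes and a threshold of 0.05. "Called" means past it. SE and 95% intervals come from this fit. RPKM served for levels between genes, and RPM for 1 alternative. Total counts were 13721281 to 23969024 reads, and Spearman correlations were 0.9952 to 0.9966 within groups and 0.9933 to 0.9941 between groups. The 47 genes, the further lists and the 7-mer were chosen with earlier results of these data known. Values in every library were given for genes past the threshold, ATP6V1G1, ATP6AP2 and the MiT/TFE factors, and of each further list up to 4 genes past it with the smallest p were named. The exceptions (such as ATP6V1F, CD63, PSAP, ASAH1, ATP6V1E2, ATP6V1G2, ATP6V1G3 and ACP5) were chosen after their values were seen. Annotation was GENCODE 44 on GRCh38, and promoters were those of RefSeq on GRCh38.p14, read in Python 3.11.15 with pandas 2.3.3 and plotted with matplotlib 3.10.9.

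Alternatives were other scalings, other filters, DESeq2 1.42.0 alone or required together with edgeR (no adjusted p for 2275 genes), limma 3.58.1 on log2(RPM + 0.5), thinned libraries of equal size, a replicate block, and leaving out each library. On counts simulated for this comparison (14493 genes), the share of changed genes found by edgeR was 40.8% for changes of 1.2-fold, 81.6% for 1.5-fold and 100% for 4-fold. It also called 9 of the 14298 genes left unchanged.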

Additional observations from a re-analysis of the deposited data

How the results depend on the processing

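No log2 fold change of the 10 genes past the threshold reversed under the 16 alternatives, and ATP6V1G1, CTSB, CTSD, CTSZ and TPP1 passed under each. ATP6V1G1 ranged from -0.58 to -0.54 with 1 library left out. CTSK lost its call under 1 alternative, IDS under 3, ATP6V1A and NAGLU under 5 and CTSF under 10. Of 36 tested genes not called, ATP6V1F, CTSO and GAA passed under some alternative. With 1 library left out, the count over all genes ranged from 1151 to 2265 (562 to 1080 higher, 589 to 1185 lower), that of the 47 genes from 6 to 11 (1 to 3 higher, 4 to 8 lower), and that of the 134 further genes from 16 to 31 (6 to 13 higher, 9 to 18 lower). Thinned to the smallest library, 8 of the further genes were higher. DESeq2 called 8 of the 47 genes, beside 1325 of the 12392 genes to which it gave an adjusted p. No scaling moved the median of all genes past 0.0093 on the log2 scale.

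Replicate numbers are shared between the groups, but same-numbered libraries did not deviate together (correlations of -0.007, -0.019 and -0.013), so the numbers were not taken as pairs. With the replicate number as a block, 1961 genes and 11 of the 47 passed, the added gene being CTSO at an adjusted p of 0.0491 in edgeR.

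With 3 samples a group, changes near 1.2-fold were recovered in fewer than 1 of 2 simulated cases, so a gene of this size that did not pass is not shown to be unchanged. ATP6V0C was too thinly read to test, and MITF, TFEB and GLA have wide intervals.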
